A study of Rattus norvegicus with 22 samples.

Results

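Freshly isolated rat microglia (the Acute group, 3 samples) were compared with microglia kept for 8 days in culture, of which the last 3 days were spent in medium with 10% fetal calf serum (the FCS 3d group, 4 samples). These 7 samples, chosen by their labels, belong to a series of 22. All cells came from brains of Sprague-Dawley rats at postnatal day 21, with the cerebella discarded, and were captured on dishes coated with the OX42 antibody to CD11b. Acute cells were taken at 0 days of culture and met no serum. The other groups used here for reference spent the same 8 days in culture without serum (TIC, n = 6), with serum for the last day (FCS 1d, n = 5) or with serum for the last 5 days (FCS 5d, n = 4). No group carried a transgene or an added drug according to the labels, which do not say what TIC medium contains. A culture that follows CD11b panning holds the cells that attached and survived, so time in culture and serum both separate FCS 3d from Acute.

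Microglia are the resident macrophages of the brain. In tissue they depend on signals from their neighbours, such as ligands of the CSF1 receptor and TGF-beta, and they hold a set of homeostatic genes that includes purinergic and chemokine receptors and the transcription factor Sall1. Macrophages away from the brain, and microglia in damaged or diseased tissue, use other sets of genes for lipid uptake, lysosomal work and signalling to leukocytes. Serum carries lipoproteins, growth factors and adhesion proteins that a resting brain keeps out behind the blood-brain barrier.

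Messenger RNA was read as FPKM for 17284 gene symbols. The name stands for fragments scaled by transcript length and by mapped fragments, but no source used here says how the libraries were scaled. The 9691 genes reaching 1 FPKM in 3 or more of the 22 samples were tested on log2(FPKM + 1), and log2 changes below are on that scale with the SE of the fit. A gene was called at a limma adjusted p under 0.05. Summed FPKM was 564301 to 696703 in the Acute libraries and 381734 to 415767 in the FCS 3d libraries, so that this technical measure and the groups do not overlap. The number of tested genes listed at 0 divided each group. It was 934 to 1072 in Acute 1, Acute 2, FCS 3d 1 and FCS 3d 3 (many zeros). In Acute 3, FCS 3d 2 and FCS 3d 4 it was 485 to 527 (few zeros). Acute 3 is thus the only fresh library in fits of the libraries with few zeros, and a call lost there says little by itself. Libraries correlated across genes at r = 0.84 to 0.86 within Acute, 0.94 to 0.98 within FCS 3d and 0.71 to 0.80 between them. The microglial markers Csf1r and Aif1 were present in all 7 libraries. Itgam, which encodes the CD11b captured by the antibody, was uneven among the fresh libraries at 3.97, 9.14 and 87.2 FPKM in Acute 1 to 3, against 80.5 to 123 FPKM in FCS 3d. In bulk RNA, fewer cells of a type and less RNA per cell cannot be told apart.

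Of the 9691 tested genes, 3814 were called (39.4%), 2658 lower (27.4%) and 1156 higher (11.9%) in FCS 3d than in Acute. In 3738 genes (38.6%) the libraries of the groups did not overlap. Changes beyond 4-fold were called lower for 817 genes and higher for 326. The median change over all tested genes was -0.35, and the balance of directions moved with the scaling. With libraries rescaled by median-of-ratios it was -0.02, and 1842 genes were called higher and 1849 lower. Quantile normalization gave 1947 higher and 1727 lower. A fit of the 2 compared groups alone gave 818 higher and 2123 lower. With summed FPKM (high or low) taken as a covariate, a term which takes its estimate from TIC and FCS 1d libraries alone, 1572 genes were higher and 1139 lower. Counts for gene lists below stand beside 11.9% higher and 27.4% lower among all tested genes.

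**Figure D1:**
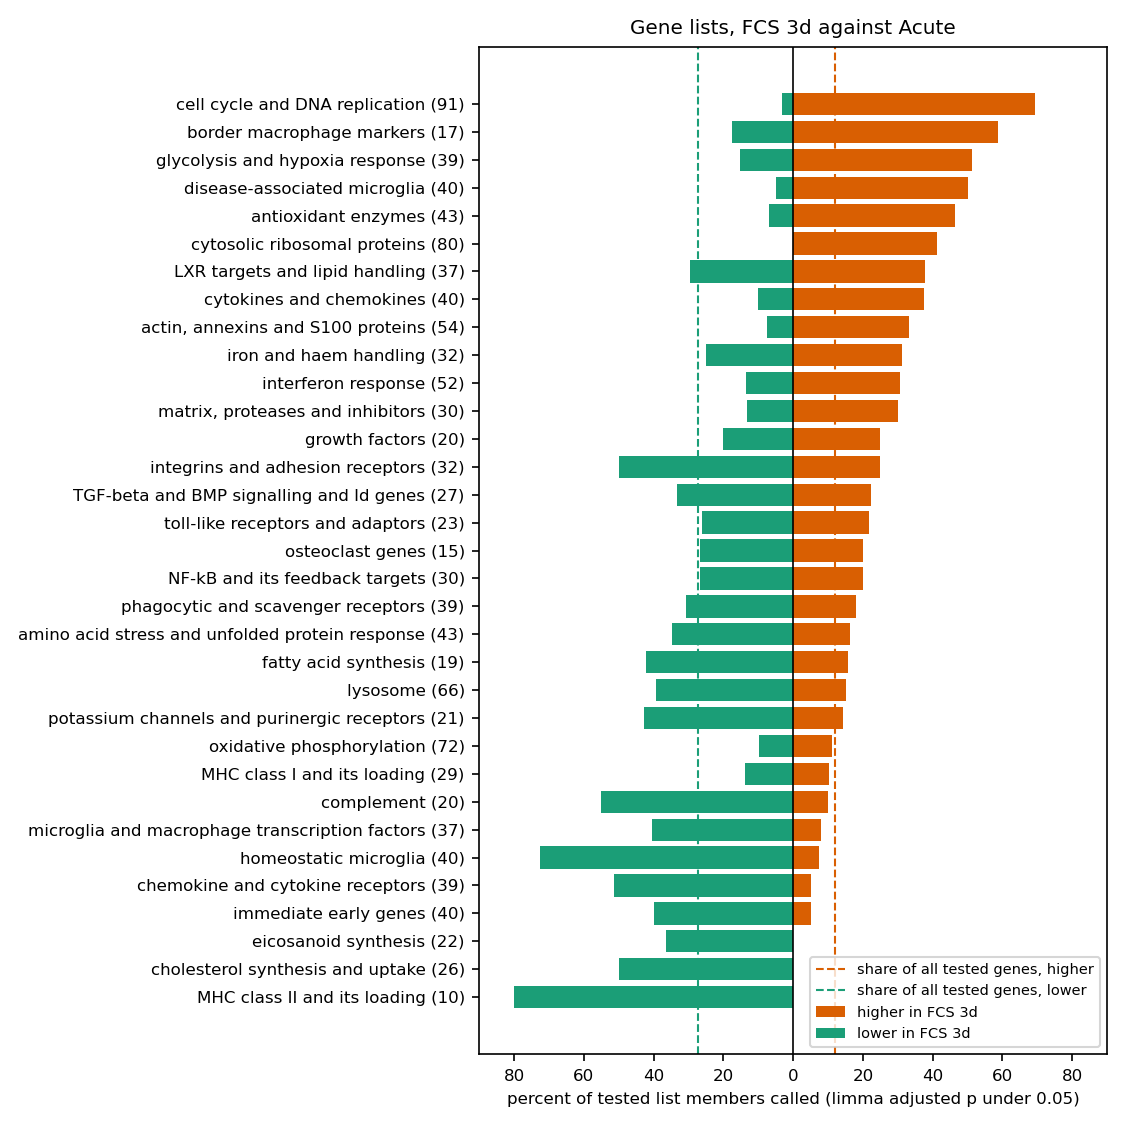
Percent of the tested members of each gene list (x axis, number of tested members in parentheses) that limma called higher (orange, right) or lower (green, left) in FCS 3d than in Acute, for the lists with at least 10 tested members, markers of other cell types left out. Dashed lines mark the shares among all tested genes, 11.9% higher and 27.4% lower. Among the lists drawn, cell cycle genes reach furthest to the right, and MHC class II and homeostatic genes furthest to the left.

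Most genes of the homeostatic list were lower after culture. P2ry12, the ADP receptor with which microglial processes sense injury, was at 946, 827 and 321 FPKM in Acute against 10, 19.3, 9.48 and 23.7 FPKM in FCS 3d (log2 change -5.35 ± 0.55, adjusted p = 9.5e-08). Tmem119, a membrane protein used to tell microglia from other macrophages, was at 1777, 760 and 1856 FPKM and fell to 31.5, 46.2, 43.8 and 41.2 FPKM (-5.04 ± 0.48, adjusted p = 2.3e-08). Sall1, the zinc finger factor that maintains microglial identity, was at 126, 107 and 45.2 FPKM and at 0.701, 2.08, 1.65 and 1.82 FPKM (-5.10 ± 0.35, adjusted p = 6.8e-11). For each of these genes every fresh library lay above every cultured one, with no overlap. Cx3cr1, the receptor for the neuronal chemokine fractalkine, measured 2621, 3093 and 1855 FPKM in Acute and 100, 197, 129 and 246 FPKM in FCS 3d (-3.95 ± 0.80, adjusted p = 0.00049).

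Of 40 tested genes on the homeostatic list, 29 were lower and 3 higher, with a median change of -2.17 against -0.35 over all tested genes. The list took 9.62 to 23.7% of summed FPKM in Acute and 1.47 to 1.71% in FCS 3d. The falls included secreted and lysosomal products as well as receptors. Cst3 (cystatin C, an inhibitor of cathepsins) made up 3.94 to 17.2% of summed FPKM in the fresh libraries and 0.204 to 0.271% in the cultured ones. Ctss (cathepsin S) was at 16776, 10385 and 17977 FPKM and at 649, 641, 690 and 749 FPKM (-4.42 ± 0.34, adjusted p = 8e-10). Sparc, a secreted matrix-binding protein, was at 1134, 762 and 3888 FPKM and at 10.6, 17.8, 20 and 28.1 FPKM. Slc2a5, a fructose transporter that marks microglia in brain, was at 790, 858 and 347 FPKM and at 3.31, 6.41, 6.26 and 9.1 FPKM. Those genes share a clean gap between the groups.

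Csf1r, the growth factor receptor on which microglia depend, stood at 1528, 2760 and 2687 FPKM in Acute, compared with 565, 650, 591 and 677 FPKM in FCS 3d (-1.86 ± 0.26, adjusted p = 6e-06). Aif1 (IBA1, an actin-binding protein) was at 3208, 1591 and 2564 FPKM and at 582, 899, 578 and 1037 FPKM (-1.65 ± 0.39, adjusted p = 0.0017), a call that was lost with summed FPKM taken as a covariate (adjusted p = 0.15). Both stayed among the abundant transcripts of cultured cells. Trem2, a lipid-sensing receptor, did not pass the test (-1.22 ± 0.55, adjusted p = 0.084), at 665 to 1736 FPKM in Acute and 318 to 583 FPKM in FCS 3d. The libraries of the groups did not overlap for Trem2, and its direction turned with summed FPKM taken as a covariate (0.56). It was called lower under 4 alternatives, in a fit of the 2 groups alone, with the replicate block (-1.40, adjusted p = 0.0014), with the zeros term and in the libraries with many zeros. Itgam was called higher (2.58 ± 0.55, adjusted p = 0.00084), but Acute 3 lay within the range of the cultured libraries. In the libraries with few zeros, where Acute 3 is the only fresh one, the change of Itgam was 0.31.

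**Figure D2:**
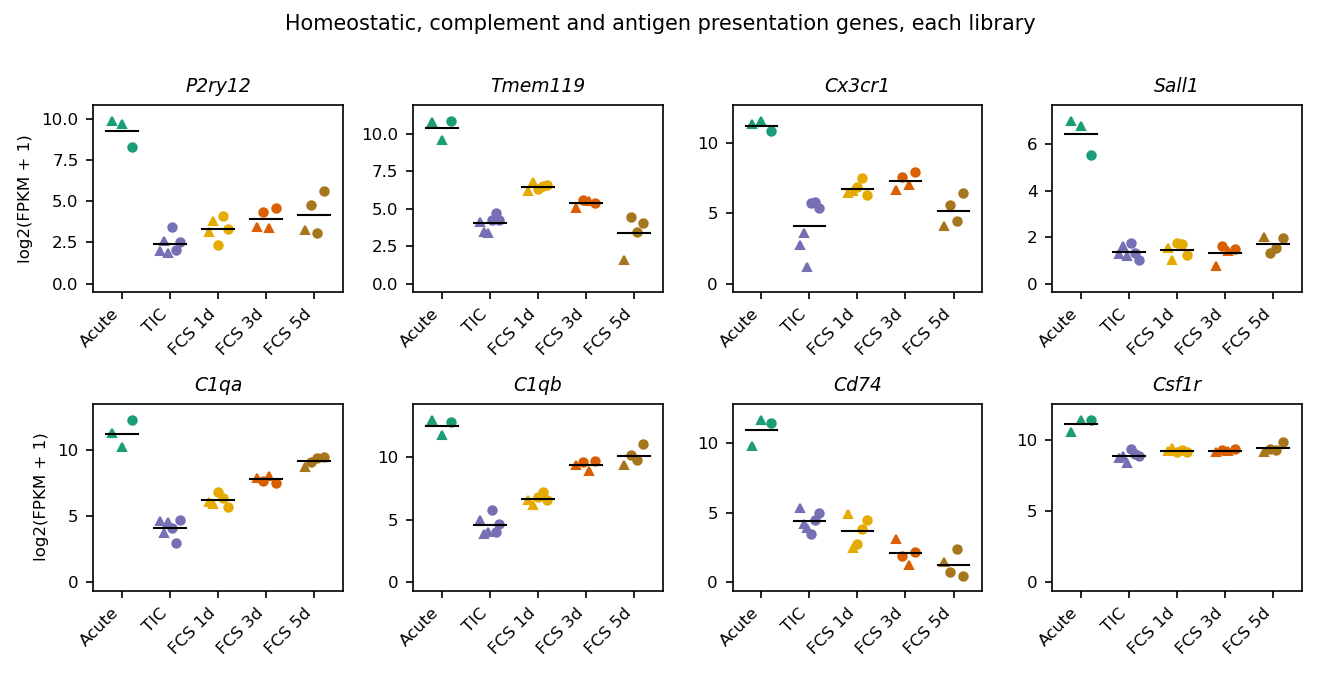
Each point is one library, with log2(FPKM + 1) on the y axis and the 5 groups on the x axis. Horizontal lines are group means, circles are libraries with few tested genes at 0 and triangles those with many. P2ry12, Tmem119, Cx3cr1, Sall1 and Cd74 are far below Acute in all cultured groups, and C1qa and C1qb lie between Acute and TIC in FCS 3d.

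Purinergic and cytokine receptors followed the same direction. On a list of potassium channels and purinergic receptors 9 of 21 tested genes were lower and 3 higher, and on a list of chemokine and cytokine receptors 20 of 39 were lower and 2 higher (median -1.12). P2ry13, another ADP receptor, was at 160, 229 and 702 FPKM in Acute against 7.1, 5.96, 6.71 and 3.59 FPKM in FCS 3d (-5.47 ± 0.64, adjusted p = 7.1e-07). Il6st, the shared signal-transducing chain of the IL-6 receptor family, was at 184, 178 and 71.3 FPKM and at 2.17, 2.3, 3.41 and 4.74 FPKM. Ifngr1, the ligand-binding chain of the interferon gamma receptor, was at 2371, 1621 and 1447 FPKM and at 135, 117, 103 and 128 FPKM (-3.87 ± 0.47, adjusted p = 1.1e-06). In these 3 receptors no cultured library came near a fresh one. Tgfbr2, the type II receptor for TGF-beta, went the other way, at 7.61, 16.7 and 64.9 FPKM in Acute and at 64.8, 94, 75 and 111 FPKM in FCS 3d (1.99 ± 0.45, adjusted p = 0.0014). Acute 3 equalled the lowest cultured library for this gene, and the call was lost in the libraries with few zeros (0.65, adjusted p = 0.15).

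Among transcription factors, more were called lower than higher in the fit as reported. Of 37 tested factors of microglia and macrophages, 15 were lower and 3 higher (median -0.83). Without Acute 2 the balance was 10 lower and 3 higher, and with summed FPKM taken as a covariate it was 5 lower and 7 higher. The list took 1.63% of summed FPKM in Acute 2, against 0.15% in Acute 1 and 0.256% in Acute 3. Hif1a and Tfec, described here, went against the larger part of the calls. Hif1a, the oxygen-regulated factor that drives glycolytic genes, measured 15.8, 35 and 15.4 FPKM in Acute and 56.1, 49.2, 78.7 and 41.7 FPKM in FCS 3d (1.38 ± 0.32, adjusted p = 0.0018). Tfec, a relative of the lysosomal regulator TFEB, was at 6.51, 0 and 3.72 FPKM and at 22.2, 11.4, 11.5 and 11.2 FPKM (adjusted p = 0.0078), without overlap. That call was lost without Acute 2 (1.28, adjusted p = 0.097) and in either set of libraries defined by zeros.

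Most tested genes of antigen presentation by MHC class II were lower after culture. Cd74, the invariant chain that guides class II molecules to endosomes, stood at 848, 3163 and 2775 FPKM in Acute, compared with 7.48, 2.7, 1.41 and 3.46 FPKM in FCS 3d (-8.83 ± 0.60, adjusted p = 7e-11). RT1-Da, a class II alpha chain of the rat, was at 355, 406 and 639 FPKM and at 0, 0.389, 0 and 0.871 FPKM. RT1-Db1, a class II beta chain, was at 93.7, 104 and 184 FPKM and at 0, 0.364, 0 and 0.408 FPKM. Each of the 3 genes was below 10 FPKM in every cultured library. Of 10 tested genes of class II and its loading, 8 were lower and 0 higher, with a median of -4.57. The list took 2.8 to 3.5% of summed FPKM in Acute and 0.405 to 0.493% in FCS 3d. The 3 genes named above made up only a minor part of either share, so the share does not measure class II chains alone. Under 5 of the alternatives in scale and library choice, 1 member was called higher. The list of MHC class I genes showed no such balance, with 4 lower and 3 higher of 29, and its direction depended on scaling (7 higher and 0 lower after median-of-ratios rescaling). Near-identical MHC genes can share reads, so values of single members of these families are uncertain.

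Most tested complement genes were lower than in fresh cells. C1qa, C1qb and C1qc encode the chains of C1q, which tags synapses and debris for uptake. C1qa was at 2461, 1199 and 5020 FPKM in Acute against 238, 199, 266 and 185 FPKM in FCS 3d (-3.48 ± 0.42, adjusted p = 9e-07). C1qb was at 8146, 3519 and 7317 FPKM and at 661, 779, 479 and 833 FPKM (-3.14 ± 0.43, adjusted p = 6.3e-06). C1qc fell by 3.78 ± 0.54, from 2683 to 6875 FPKM to 227 to 363 FPKM. Each chain fell without overlap. Against TIC the direction was opposite: C1qa, C1qb and C1qc measured 18.2 ± 7.48, 25.7 ± 15.4 and 20.8 ± 12.5 FPKM (SD, n = 6) without serum, and FCS 3d was higher by 3.64, 4.83 and 3.95 on the log2 scale (adjusted p = 4.1e-07, 1.6e-08 and 5e-06).

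Of 20 tested complement genes 11 were lower than in Acute and 2 higher, and 8 were higher and 4 lower than in TIC, where 4.13% of all tested genes were higher in FCS 3d and 5.95% lower. Cfp (properdin, which stabilises the alternative pathway convertase) was at 496, 559 and 609 FPKM in Acute, at 51, 41, 34.4 and 47 FPKM in FCS 3d and at 12.8 ± 6.42 FPKM in TIC (SD, n = 6). C3, the central component, measured 36.6, 145 and 39.4 FPKM in Acute and 22.7, 15.1, 11 and 34.6 FPKM in FCS 3d (-1.59 ± 0.51, adjusted p = 0.016). The C3 call was lost without Acute 2 (-0.96, adjusted p = 0.16), without FCS 3d 3 (-1.35, adjusted p = 0.055), after quantile normalization, with the summed-FPKM term and in the libraries with few zeros. Vsig4, a macrophage receptor for C3 fragments, was listed at 0 in all 3 Acute and all TIC libraries and at 10.2, 1.97, 7.2 and 2.57 FPKM in FCS 3d (adjusted p = 0.0004 against Acute and 0.00037 against TIC).

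Genes of the disease-associated microglial state, which microglia near plaques and lesions switch on, were higher after culture. Gpnmb, a lysosomal glycoprotein, stood at 27.4, 18.2 and 46.5 FPKM in Acute, compared with 2205, 2487, 2813 and 2317 FPKM in FCS 3d (6.37 ± 0.41, adjusted p = 3e-11). Lpl, the lipoprotein lipase that releases fatty acids, was listed at 0, 1.2 and 1.99 FPKM and stood at 329, 262, 306 and 229 FPKM (7.23 ± 0.37, adjusted p = 3.9e-13). Fabp5, a fatty acid carrier, was at 1.6, 3.93 and 0 FPKM and at 218, 363, 260 and 307 FPKM (6.92 ± 0.45, adjusted p = 3.8e-11). For these genes the cultured libraries lay close together and far above the fresh ones. Of 40 tested genes on the list 20 were higher and 2 lower, with a median of 1.37. Against TIC, 3 members were higher and 8 lower, with a median of -0.39. Lpl and Fabp5 were below TIC by 1.24 and 2.02 (adjusted p = 0.011 and 0.0012), and Gpnmb was not called there (-0.68, adjusted p = 0.26). The list took 3.7 to 6.08% of summed FPKM in Acute and 7.33 to 10.6% in FCS 3d.

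Other members of the list spread more widely. Spp1 (osteopontin, a secreted matrix phosphoprotein) was at 27.7, 0.348 and 4.86 FPKM in Acute against 4866, 724, 6718 and 510 FPKM in FCS 3d (8.26 ± 1.41, adjusted p = 8.2e-05). Its high cultured values were in FCS 3d 1 and 3, the libraries with many zeros, and its low ones in FCS 3d 2 and 4. The call was lost in the libraries with few zeros, where the change was 6.7. Within FCS 3d, zeros and replicate number cannot be told apart. Osteoclast genes, which split alike in FCS 3d, took 5.94, 1.54 and 5.58% of summed FPKM in TIC 1 to 3, all with many zeros. They took 1.99, 0.759, 2.18 and 0.415% in FCS 5d 1 to 4, of which only FCS 5d 1 has many zeros. Lgals3 (galectin 3) was at 16.7, 116 and 43.2 FPKM and at 533, 533, 783 and 532 FPKM (3.70 ± 0.61, adjusted p = 5.4e-05). Lilrb4, an inhibitory receptor, was at 0, 0.899 and 7.32 FPKM and at 137, 85.1, 118 and 125 FPKM. Apoe, the lipid carrier that belongs to the same state, was lower: 20796, 7171 and 17436 FPKM in Acute and 837, 1727, 707 and 2141 FPKM in FCS 3d (-3.50 ± 0.76, adjusted p = 0.00099). The Apoe call was lost with summed FPKM taken as a covariate (-0.99, adjusted p = 0.27). Axl, a receptor for apoptotic cells, was not called (0.53 ± 0.44, adjusted p = 0.35), at 17 to 47.8 FPKM in Acute and 29.9 to 68.1 FPKM in FCS 3d.

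Genes of lipid handling moved in both directions. The scavenger receptor Msr1, which takes up modified lipoproteins, measured 4.64, 0 and 12.4 FPKM in Acute and 505, 502, 579 and 617 FPKM in FCS 3d (7.02 ± 0.48, adjusted p = 8.3e-11). Fabp4, another fatty acid carrier, was at 0, 2.75 and 2.14 FPKM and at 121, 108, 123 and 113 FPKM (5.69 ± 0.82, adjusted p = 1.1e-05). Abca1, the cholesterol exporter controlled by LXR receptors, was at 2.17, 2.51 and 3.9 FPKM and at 12.9, 15.4, 16.7 and 19 FPKM (2.15 ± 0.30, adjusted p = 8.3e-06). Abca1 and Fabp4 were both below TIC, by 1.23 and 2.92 on the log2 scale (adjusted p = 0.0027 and 0.0076). Pltp, a phospholipid transfer protein, was at 536, 537 and 2031 FPKM in Acute and was listed at 0 in FCS 3d 1, 3 and 4 but at 47.6 FPKM in FCS 3d 2 (-8.31 ± 1.80, adjusted p = 0.001). That call was lost with the summed-FPKM term (-4.42) and in the libraries with few zeros, where the change was -8.19. Of 37 tested genes of LXR targets and lipid handling 14 were higher and 11 lower.

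Genes of cholesterol synthesis and uptake were lower in 13 of 26 tested cases and higher in 0, with a median of -0.82. Hmgcs1, an early enzyme of the sterol pathway, stood at 24.2, 16.1 and 16.2 FPKM in Acute, compared with 3.29, 4.25, 8.29 and 2.22 FPKM in FCS 3d (-1.94 ± 0.41, adjusted p = 0.00079). Insig1, which holds SREBP in the endoplasmic reticulum and is itself a sterol-regulated gene, was at 26.4, 32.5 and 16.2 FPKM and at 7.42, 5.36, 7.7 and 6.01 FPKM (-1.73 ± 0.37, adjusted p = 0.00091). The groups did not overlap for either gene. The Insig1 call was lost with the summed-FPKM term and in the libraries with few zeros, the Hmgcs1 call in those with many zeros, and the list count was 3 lower and 0 higher with that term. Against TIC, 10 members of the list were lower and 0 higher.

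On the fatty acid synthesis list 8 of 19 tested genes were lower and 3 higher. The 3 that rose were enzymes of synthesis at low levels. Fasn (fatty acid synthase) measured 3.35, 3.85 and 6.86 FPKM in Acute against 9.82, 8.67, 8.35 and 10.3 FPKM in FCS 3d (0.90 ± 0.31, adjusted p = 0.023). Acaca (acetyl-CoA carboxylase, the committed step) was at 0, 0.606 and 0.529 FPKM and at 1.84, 1.56, 1.74 and 2.36 FPKM (1.08 ± 0.32, adjusted p = 0.0093). Gpam, an acyltransferase of glycerolipid synthesis, rose by 1.26 ± 0.47 (adjusted p = 0.037). None of the 3 overlapped between the groups, but each call was lost with the summed-FPKM term and in the libraries with few zeros. The Fasn call was also lost without Acute 1 (0.73, adjusted p = 0.099), Acute 2 (0.81, adjusted p = 0.07) or FCS 3d 4 (0.85, adjusted p = 0.053), and the Acaca call without Acute 1 (0.87, adjusted p = 0.059). For Gpam it was lost without any 1 library other than Acute 1 (0.87 to 1.34, adjusted p = 0.051 to 0.2). The regulator Srebf1 and the desaturase Scd2 fell. Srebf1, the transcription factor SREBP1, was at 14.5, 25 and 32.8 FPKM in Acute against 5.74, 5.8, 3.45 and 9.49 FPKM in FCS 3d (-1.81 ± 0.30, adjusted p = 5.7e-05). Scd2, a stearoyl-CoA desaturase, was at 111, 402 and 55.9 FPKM and at 26.7, 31.6, 32.2 and 35.8 FPKM (-2.08 ± 0.42, adjusted p = 0.00046). In TIC these genes stood above both groups, Srebf1 at 52.9 ± 8.3 FPKM and Scd2 at 450 ± 84.7 FPKM (SD, n = 6). The differences between FCS 3d and TIC were -2.97 for Srebf1 and -3.78 for Scd2 (adjusted p = 8.3e-08 and 2.5e-07). Scd2 was not called against Acute in the libraries with few zeros (-0.72, adjusted p = 0.31).

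**Figure D3:**
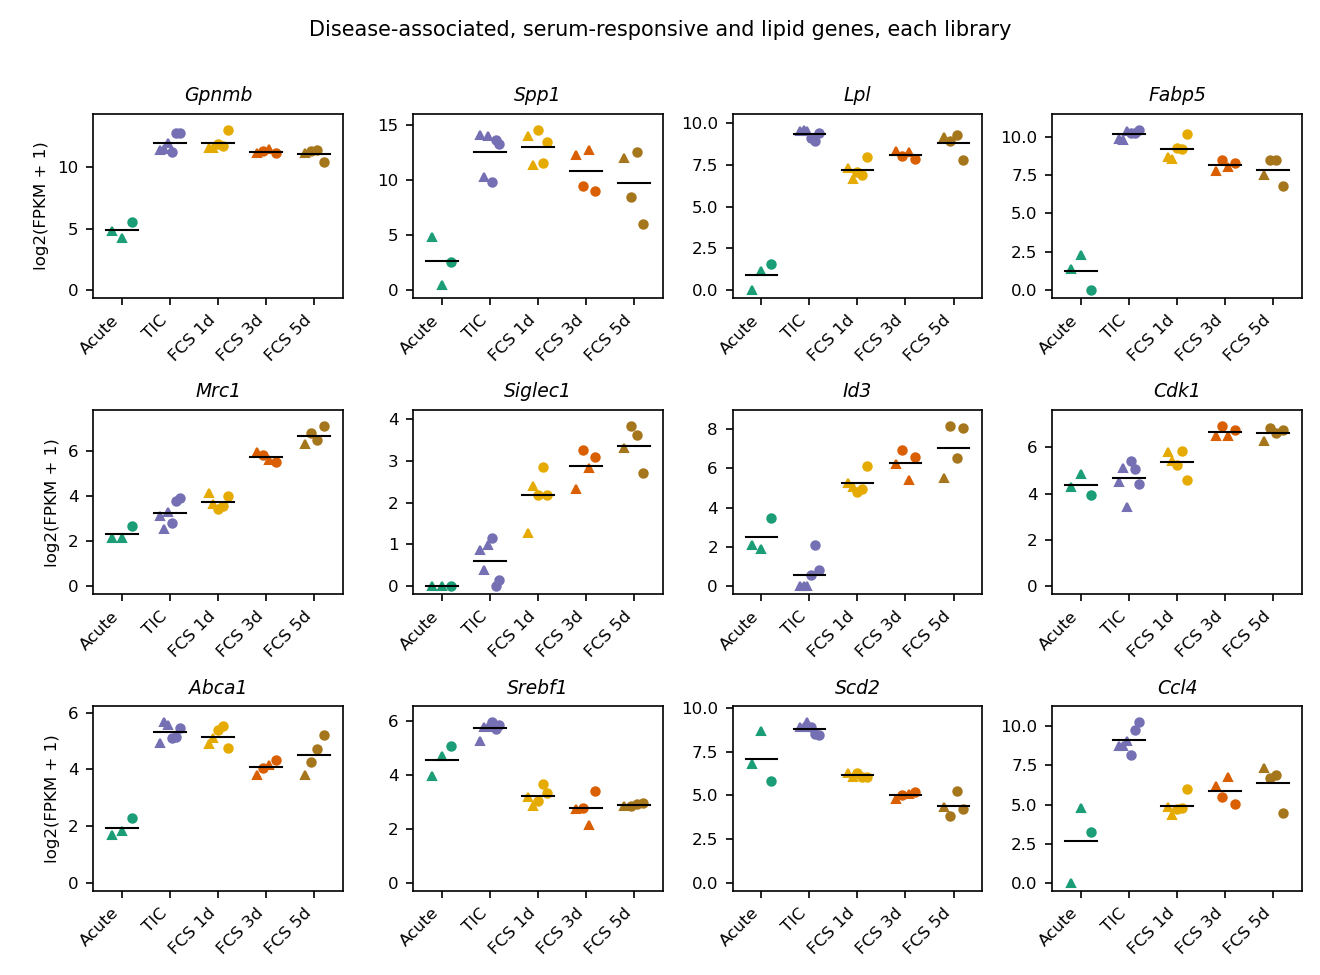
Each point is one library, with log2(FPKM + 1) on the y axis and the 5 groups on the x axis. Horizontal lines are group means, circles are libraries with few tested genes at 0 and triangles those with many. Gpnmb, Lpl and Fabp5 are high in every cultured group, Mrc1, Siglec1, Id3 and Cdk1 are higher in FCS 3d than in both Acute and TIC, and Srebf1 and Scd2 are lower than in both.

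Macrophage genes of the brain's borders, which perivascular and meningeal macrophages express and parenchymal microglia largely do not, were higher in 10 of 17 tested cases and lower in 3, with a median of 1.58. Mrc1 (the mannose receptor CD206) measured 3.43, 3.46 and 5.3 FPKM in Acute and 61.8, 55.2, 47.3 and 44 FPKM in FCS 3d (3.40 ± 0.31, adjusted p = 1.5e-08). Siglec1 (CD169, a sialic acid-binding lectin) was listed at 0 in all 3 Acute libraries and stood at 4.04, 8.61, 6.1 and 7.55 FPKM (adjusted p = 3.4e-06). Dab2, an endocytic adaptor, was at 5.35, 8.69 and 15.7 FPKM and at 186, 187, 185 and 166 FPKM (4.17 ± 0.30, adjusted p = 1.5e-10). None of these genes overlapped between the groups. Mrc1 and Siglec1 were also higher than in TIC, by 2.47 and 2.29 on the log2 scale (adjusted p = 2.1e-06 and 5e-05), while Dab2 was not called there (0.53, adjusted p = 0.22).

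Other border markers did not follow. Lyve1, a hyaluronan receptor, stood at 108, 49.2 and 127 FPKM in Acute, compared with 33.2, 45.1, 19.2 and 30.1 FPKM in FCS 3d, a difference that did not pass the test (-1.49 ± 0.70, adjusted p = 0.096). It passed with 4 of the alternatives, at a pseudocount of 5, in a fit of the 2 groups alone, with the replicate block and with the summed-FPKM term. Against TIC, where Lyve1 stood at 3.68 ± 3.06 FPKM (SD, n = 6), it was higher by 3.07 (adjusted p = 0.0015). Clec10a, a galactose-binding lectin, was at 21.3, 29.4 and 41.3 FPKM in Acute against 0, 0.623, 0 and 0.698 FPKM in FCS 3d (-4.57 ± 0.52, adjusted p = 4.4e-07). Cd163, the haemoglobin scavenger receptor, was too low to be tested, at 0, 0.123 and 2.28 FPKM in Acute and listed at 0 in all 4 FCS 3d libraries. The summed level of the 21 border markers in the table was 0.464 to 1.14% of FPKM in Acute, against 3.52 to 5.24% in FCS 3d. It was 2.2 to 2.95% in TIC, 4.77 to 6.73% in FCS 1d and 1.38 to 1.72% in FCS 5d. Mrc1, Siglec1 and Dab2 made up only a small part of the FCS 3d share.

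Phagocytic receptors and lysosomal genes were divided. Of 39 tested phagocytic and scavenger receptors 12 were lower and 7 higher, a balance that turned to 9 lower and 12 higher after median-of-ratios rescaling. Cd14, the co-receptor for lipopolysaccharide, measured 83.4, 112 and 52.8 FPKM in Acute and 1094, 1573, 1188 and 1727 FPKM in FCS 3d (4.10 ± 0.37, adjusted p = 1.3e-08). Mertk, a receptor for apoptotic cells, was at 33.8, 63.2 and 45 FPKM and at 11.9, 13.5, 14 and 17.7 FPKM (-1.63 ± 0.37, adjusted p = 0.0012), just missing the threshold in the libraries with few zeros (adjusted p = 0.059). Of 66 tested lysosomal genes 26 were lower and 10 higher, against 12 lower and 19 higher with the summed-FPKM term. Atp6v1a, a subunit of the proton pump that acidifies lysosomes, was at 19.2, 26.8 and 9.48 FPKM and at 81.2, 64.5, 90 and 61.3 FPKM (2.04 ± 0.29, adjusted p = 1e-05). Acidification and scavenging genes thus included clear rises beside the falls of Ctss and Cst3.

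Chemokines that attract monocytes were among the largest rises. Ccl12 stood at 1.95, 14.4 and 4.46 FPKM in Acute, compared with 609, 347, 923 and 397 FPKM in FCS 3d (6.39 ± 0.73, adjusted p = 4.9e-07). Ccl7 was at 23.5, 16 and 5.97 FPKM and at 510, 301, 714 and 310 FPKM (4.91 ± 0.65, adjusted p = 3.2e-06). Ccl2 was at 28.4, 727 and 6.18 FPKM and at 1038, 515, 1386 and 574 FPKM (3.92 ± 0.95, adjusted p = 0.0024). Acute 2 held most of the fresh Ccl2, above both FCS 3d 2 and FCS 3d 4. Its call was lost with the summed-FPKM term and in the libraries with many zeros. These chemokine genes are close relatives, and reads shared between them can make single values uncertain.

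Il1b, the interleukin 1 beta precursor, was at 25.8, 66.7 and 47.8 FPKM in Acute against 149, 153, 181 and 120 FPKM in FCS 3d (1.75 ± 0.34, adjusted p = 0.00036). Ccl4, a CC chemokine, was at 0, 26 and 8.64 FPKM and at 70.8, 43.2, 109 and 31.6 FPKM (3.19 ± 0.79, adjusted p = 0.0027). Both calls were lost in the libraries with few zeros (adjusted p = 0.052 and 0.19). Tnf was not called (0.93 ± 0.54, adjusted p = 0.18), at 5.63 to 66.6 FPKM in Acute and 25.1 to 53.4 FPKM in FCS 3d. It was called higher under 5 alternatives, without Acute 2 (1.89, adjusted p = 0.0029), after median-of-ratios rescaling or quantile normalization, with the summed-FPKM term and in the libraries with few zeros. Ccl5, a T cell attractant, and Il33, an alarmin, fell. Ccl5 was at 33.4, 136 and 82.7 FPKM in Acute and was listed at 0 in every FCS 3d library, and Il33 was at 147, 42.9 and 67.9 FPKM and at 3.67, 0.757, 0.692 and 0 FPKM. Of 40 tested cytokines and chemokines 15 were higher and 4 lower than in Acute, and 0 were higher and 11 lower than in TIC. Il1b and Ccl4 were below TIC by 1.26 and 3.26 (adjusted p = 0.0063 and 0.0022).

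Interferon-induced genes were higher in 16 of 52 tested cases and lower in 7, with a median of 0.25. Oas1a, a sensor of double-stranded RNA, measured 0, 3.08 and 3.44 FPKM in Acute and 30.1, 34.7, 32.7 and 22.2 FPKM in FCS 3d (3.54 ± 0.58, adjusted p = 5.4e-05). Oas2, of the same family, was listed at 0 in all 3 libraries of Acute and stood at 20.5, 25.5, 16.4 and 17.6 FPKM (adjusted p = 8.7e-05). Irf1, an early transcription factor of the response, went down, from 49.1, 68.5 and 68.5 FPKM to 11.4, 14.1, 3.32 and 13 FPKM (-2.59 ± 0.40, adjusted p = 2.8e-05). The interferon list had 6 higher and 3 lower with the summed-FPKM term.

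In the fit as reported, cell cycle genes held the largest share of members called higher among the lists with at least 10 tested members. Of 91 tested genes 63 were higher and 3 lower (median 1.51), and against TIC 67 were higher and 0 lower. Cdk1, the kinase that drives entry into mitosis, stood at 18.7, 27.9 and 14.2 FPKM in Acute, compared with 89.3, 120, 88.5 and 105 FPKM in FCS 3d (2.30 ± 0.38, adjusted p = 4.9e-05). Its partner Ccnb1 (cyclin B1) was at 7.09, 13.4 and 6.63 FPKM and at 46.6, 42.2, 33.1 and 36.6 FPKM (2.07 ± 0.35, adjusted p = 8.5e-05). Ube2c, which with the anaphase-promoting complex marks cyclins for destruction, was at 6.91, 14.2 and 41.1 FPKM and at 200, 162, 149 and 141 FPKM (3.24 ± 0.38, adjusted p = 6.8e-07). No fresh library reached a cultured one for these genes. Uhrf1, which keeps DNA methylation through replication, was at 0, 1.02 and 2.86 FPKM in Acute against 19.9, 28, 17.4 and 22 FPKM in FCS 3d.

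Top2a (topoisomerase II alpha) measured 2.97, 18.1 and 4.36 FPKM in Acute and 28.2, 26.5, 21.5 and 29.3 FPKM in FCS 3d (1.88 ± 0.47, adjusted p = 0.0031). Mki67, the antigen of the Ki-67 antibody, was at 4.49, 8.91 and 2.73 FPKM and at 21.5, 13.9, 11.2 and 15.5 FPKM (1.45 ± 0.46, adjusted p = 0.015). Neither overlapped between groups, yet both calls were lost with the summed-FPKM term and in the libraries with many zeros, and Mki67 also without Acute 3 (1.13, adjusted p = 0.076) and, with a change of 2.07, in the libraries with few zeros (adjusted p = 0.066). The list count was 40 higher and 3 lower with that term, and 74 higher and 2 lower after median-of-ratios rescaling. Aurka, a mitotic kinase, fell, from 120, 98.1 and 70.6 FPKM to 31.3, 34.4, 19.4 and 32.6 FPKM (-1.67 ± 0.32, adjusted p = 0.00032), and so did Cdca7, at 43.4, 24.6 and 69.2 FPKM in Acute against 8.72 to 14 FPKM in FCS 3d (-1.79 ± 0.35, adjusted p = 0.00038). The Aurka call was lost in the libraries with few zeros (adjusted p = 0.07). The list took 0.263 to 0.566% of summed FPKM in Acute, 0.285 to 0.505% in TIC and 0.824 to 0.993% in FCS 3d.

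Many genes of the late cell cycle carry a cell cycle homology region and CCAAT boxes in their promoters, elements through which the DREAM complex, the MuvB core and NF-Y are known to act. The 250 bases before the annotated start of Cdk1, Ccnb1 and Top2a are shown because these genes rose together. The letters are from RefSeq on rat build GRCr8, 5′ to 3′ on each gene's strand, with the homology region (TTTGAA or TTTCGAA) and the CCAAT box in capitals on either strand. They are Cdk1 at chr20:19265043-19265292 on the plus strand, Ccnb1 at chr2:33655226-33655475 on the minus strand and Top2a at chr10:84473094-84473343 on the minus strand.
Cdk1: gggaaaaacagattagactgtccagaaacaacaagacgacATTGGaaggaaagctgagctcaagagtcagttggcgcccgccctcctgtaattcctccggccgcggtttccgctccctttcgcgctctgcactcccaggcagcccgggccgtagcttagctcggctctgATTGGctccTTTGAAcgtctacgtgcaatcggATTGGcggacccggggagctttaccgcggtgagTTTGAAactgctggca
Ccnb1: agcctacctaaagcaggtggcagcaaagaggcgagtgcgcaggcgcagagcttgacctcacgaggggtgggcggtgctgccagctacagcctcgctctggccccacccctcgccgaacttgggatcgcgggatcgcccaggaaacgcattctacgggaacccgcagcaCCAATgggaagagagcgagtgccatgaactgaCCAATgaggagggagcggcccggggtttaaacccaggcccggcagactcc
Top2a: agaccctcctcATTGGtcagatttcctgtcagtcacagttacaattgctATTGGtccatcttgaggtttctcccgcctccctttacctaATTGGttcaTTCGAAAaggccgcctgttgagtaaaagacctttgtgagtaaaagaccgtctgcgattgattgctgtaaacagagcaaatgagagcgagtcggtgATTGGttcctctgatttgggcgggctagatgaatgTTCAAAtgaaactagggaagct
In these windows, with the spellings given above, Cdk1 holds 2 homology regions and 3 CCAAT boxes, Ccnb1 holds 0 and 2, and Top2a holds 2 and 4. Other spellings of the homology region were not searched, so the count for Ccnb1 does not show that its promoter lacks one. Of the 63 cell cycle genes called higher, 49 had a promoter in the RefSeq table. A homology region was found in 17 of the 49 windows (34.7%), against 11% of the 7479 windows of tested genes with a promoter and 16.7% of all 33469 windows. A CCAAT box was found in 33 (67.3%), against 36.2% of tested genes and 34.0% of all. An E2F site, spelled TTTGGCGC, TTTCCCGC or TTTCGCGC on either strand, was found in 8 (16.3%), against 3.01% and 1.41%. Both a homology region and a CCAAT box were found in 15 (30.6%), against 4.28% and 6.07%, and these matches may share letters. The 49 genes come from a cell cycle list, and many such genes are known to carry the homology region and CCAAT boxes. These shares therefore describe the list and not the rise in FCS 3d, and list members not called higher were not compared. The 33469 windows were not reduced to 1 per gene, while those of the other sets were. A match describes the letters of a window and was not tested for binding.

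Id3, an inhibitor of basic helix-loop-helix factors and a known target of BMP signalling, was higher in FCS 3d than in both Acute and TIC. It stood at 3.36, 2.75 and 10.2 FPKM in Acute, compared with 72.4, 119, 41.4 and 93.7 FPKM in FCS 3d (3.76 ± 0.59, adjusted p = 2.8e-05). In TIC it was listed at 0 in 3 libraries and at 0.505, 0.791 and 3.31 FPKM in the others, and FCS 3d was higher by 5.68 (adjusted p = 1e-07). The other serum cultures were also high, with Id3 at 38.8 ± 17.5 FPKM in FCS 1d (SD, n = 5) and 169 ± 120 FPKM in FCS 5d (SD, n = 4), the latter not called against FCS 3d (0.78, adjusted p = 0.92). Its relative Id1 was at 9.31, 22.8 and 26.6 FPKM in Acute against 69.3, 105, 67.3 and 142 FPKM in FCS 3d (2.29 ± 0.78, adjusted p = 0.023). The Id1 call was lost without Acute 1 (1.85, adjusted p = 0.12), without FCS 3d 4 (2.08, adjusted p = 0.059), with the summed-FPKM term and in the libraries with few zeros. The list of TGF-beta and BMP genes as a whole had 9 lower and 6 higher of 27, and 6 lower and 7 higher without Acute 2. Gpx3, a secreted glutathione peroxidase, stood at 3.58, 2.11 and 0 FPKM in Acute against 91.5, 82.5, 27.6 and 74.4 FPKM in FCS 3d, and it was higher than in TIC by 4.63 (adjusted p = 0.00016). At 5 days Gpx3 was at 41.4 ± 22.3 FPKM (SD, n = 4) and was not called against FCS 3d (-0.75, adjusted p = 1). Tlr5, the flagellin receptor, was at 0, 0 and 0.566 FPKM and at 9.28, 6.42, 4.78 and 7.93 FPKM, and was higher than in TIC by 2.56 (adjusted p = 8e-06).

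Enzymes of glycolysis and detoxification were among the genes that rose. Of 39 tested genes of glycolysis and the hypoxia response 20 were higher and 6 lower (median 0.90), and of 43 antioxidant enzymes 20 were higher and 3 lower (median 1.01). Hk3, a hexokinase of myeloid cells, measured 2.09, 5.64 and 3.18 FPKM in Acute and 85.4, 88.3, 62.2 and 86.1 FPKM in FCS 3d (4.19 ± 0.40, adjusted p = 2.5e-08). Nqo1, a quinone reductase and a classical target of NRF2, was at 16.7, 18.8 and 4.97 FPKM and at 186, 145, 162 and 227 FPKM (3.80 ± 0.35, adjusted p = 1.3e-08). Sod2, the mitochondrial superoxide dismutase, was at 43.4, 64.7 and 45.5 FPKM and at 478, 414, 485 and 395 FPKM (3.11 ± 0.39, adjusted p = 1.8e-06). No fresh library came near a cultured one for these enzymes. Akr1b8, an aldo-keto reductase, was at 0, 0 and 5.26 FPKM and at 207, 340, 267 and 313 FPKM (7.24 ± 0.48, adjusted p = 4.2e-11), and the conjugating enzyme Ugt1a6 was listed at 0 in the libraries of Acute and at 32.1 to 57.4 FPKM in FCS 3d.

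Asns and Phgdh rose on a list with more members lower than higher. Asns (asparagine synthetase) stood at 0, 0 and 1.2 FPKM in Acute, compared with 10.7, 12.7, 5.89 and 12.1 FPKM in FCS 3d (3.08 ± 0.40, adjusted p = 2.7e-06), and Phgdh, the first enzyme of serine synthesis, was at 8.19, 4.59 and 6.68 FPKM and at 28.9, 30.7, 19.7 and 44 FPKM (2.06 ± 0.39, adjusted p = 0.00026). Dnajb9, a chaperone of the endoplasmic reticulum, fell from 101, 86.5 and 55.4 FPKM to 10.3, 9.68, 18.6 and 11.1 FPKM (-2.61 ± 0.33, adjusted p = 1.9e-06). In all, 15 of 43 tested genes of amino acid stress and the unfolded protein response were lower and 7 higher, with 11 lower and 12 higher after quantile normalization. Cytosolic ribosomal protein genes were higher in 33 of 80 cases and lower in 0. Rps13 was at 92.1, 40.3 and 202 FPKM in Acute against 348, 387, 333 and 398 FPKM in FCS 3d (1.99 ± 0.40, adjusted p = 0.00042). Acute 3 was the fresh library nearest to culture for Rps13, its call was lost in the libraries with few zeros (adjusted p = 0.055), and the number of ribosomal genes called higher was 16 without Acute 2, 51 without Acute 3 and 5 in the libraries with few zeros. Ribosomal protein genes have many processed copies, and reads shared with those are uncertain. Oxidative phosphorylation genes, with 8 higher and 7 lower of 72, changed their balance with scaling (32 higher and 5 lower after median-of-ratios rescaling).

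Genes for movement and contact with a surface also changed. Of 54 tested genes for actin regulators, annexins and S100 proteins 18 were higher and 4 lower. S100a4, a calcium-binding protein of motile cells, measured 60.8, 28.8 and 498 FPKM in Acute and 1038, 1014, 1144 and 1052 FPKM in FCS 3d (3.45 ± 0.52, adjusted p = 2e-05). Lmna (lamin A/C), which stiffens the nucleus, was at 1.36, 3.49 and 4.65 FPKM and at 35.2, 61.2, 52.3 and 63 FPKM (3.75 ± 0.48, adjusted p = 2.1e-06). Nrp2, a co-receptor for semaphorins and VEGF-C, was at 0, 0 and 0.361 FPKM and at 30.6, 33, 38.6 and 35.4 FPKM (4.99 ± 0.22, adjusted p = 2.8e-14). The groups were far apart for Lmna and Nrp2, and Acute 3 came closest to culture for S100a4. Mmp14, a membrane-bound collagenase, was listed at 0 in the fresh libraries and at 23.5 to 33 FPKM in FCS 3d (adjusted p = 1e-05).

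Integrins and adhesion receptors were lower in 16 of 32 tested cases and higher in 8. Selplg, the ligand by which leukocytes roll on selectins and a homeostatic microglial gene, stood at 581, 1323 and 2276 FPKM in Acute, compared with 62.6, 53.8, 38.2 and 55.9 FPKM in FCS 3d (-4.51 ± 0.43, adjusted p = 2.2e-08). Cd44, the hyaluronan receptor of activated leukocytes, was at 4.49, 22.2 and 5.13 FPKM and at 87.2, 71.9, 99.8 and 57.7 FPKM (3.09 ± 0.36, adjusted p = 6.1e-07). The 2 receptors moved in opposite directions without overlap. Esam, an adhesion protein best known from endothelium, was at 0, 0 and 2 FPKM in Acute against 44.7, 64.4, 46 and 73 FPKM in FCS 3d (5.30 ± 0.59, adjusted p = 3e-07). The 18 endothelial and mural markers in the table together held 0.00502 to 0.0134% of FPKM in Acute, against 0.0177 to 0.0258% in FCS 3d, with 1 of 9 tested members higher (Esam) and 1 lower. Whether other cells contributed to Esam was not tested.

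Immediate early genes, which stress and handling are known to induce within minutes, were lower in 16 of 40 tested cases and higher in 2. They were uneven among the fresh libraries: the list took 2.45% of summed FPKM in Acute 2, against 0.196% in Acute 1, and 0.211 to 0.230% in FCS 3d. Fos measured 21.9, 940 and 13.6 FPKM in Acute and 3.39, 4.37, 2.13 and 4.25 FPKM in FCS 3d (-3.94 ± 0.92, adjusted p = 0.0017). Dusp1, a phosphatase that ends MAP kinase signalling, was at 50.9, 2657 and 41.9 FPKM and at 4.66, 5.05, 6.16 and 2.69 FPKM (-5.04 ± 0.90, adjusted p = 0.00014). Acute 2 stood far above the other fresh libraries for both, and yet each fresh library stood above all cultured ones. Without Acute 2 the list had 12 lower and 5 higher. The Fos call was lost with the summed-FPKM term and in the libraries with few zeros, while Dusp1 kept its call in the alternatives tried.

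Neutrophil, eosinophil and red cell transcripts were present in the fresh libraries and at or near 0 in the cultured ones. S100a9, a protein of neutrophils, was at 1267, 11587 and 6765 FPKM in Acute and was listed at 0 in all 4 FCS 3d libraries. Prg2, the major basic protein of eosinophils, was at 313, 2690 and 1055 FPKM and listed at 0. Hba1, a haemoglobin chain, was at 995, 456 and 1361 FPKM and listed at 0. Among the 25 neutrophil and eosinophil markers in the table, 13 were above 0 in every Acute library and at 0 in every FCS 3d library, and 18 of 19 tested were called lower, with 0 higher. Their summed level was 0.450 to 3.96% of FPKM in Acute, against 0.0133 to 0.0283% in FCS 3d. The 11 red cell markers held 0.134 to 0.298% and 0 to 0.000365%, and all 5 tested were lower.

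Lymphocyte and NK cell markers, 10 of 14 tested being lower and 0 higher, held 0.0398 to 0.0991% of FPKM in Acute, against 0.0305 to 0.0390% in FCS 3d. Among them Nkg7, a granule protein of cytotoxic cells, was at 70.1, 267 and 48.3 FPKM and listed at 0 in FCS 3d. Monocyte markers were lower in 8 of 10 cases and higher in 1 (0.0585 to 0.127% and 0.0205 to 0.0269%). The count of lower monocyte markers was 7 without Acute 1, 5 without Acute 2, 3 without Acute 3 and 5 after median-of-ratios rescaling. Mast cell and basophil markers were lower in 4 of 4 cases and dendritic cell markers in 5 of 8. The dendritic list includes Cst3, which microglia express. Oligodendrocyte markers held 0.0371 to 0.0617% in Acute and 0.0117 to 0.0174% in FCS 3d, with 5 of 8 lower, astrocyte markers 0.00510 to 0.0336% and 0.00370 to 0.00775%, with 1 of 3 lower, and fibroblast markers at most 0.00682% and 6.43e-05%, with 2 of 2 lower. Of the 2 neuronal markers tested, 0 were called. Class II genes, Ccl5 and Clec10a, which leukocytes also express, fell alongside these markers, and so did Il33. The part of the other cells in those falls was not tested.

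**Figure D4:**
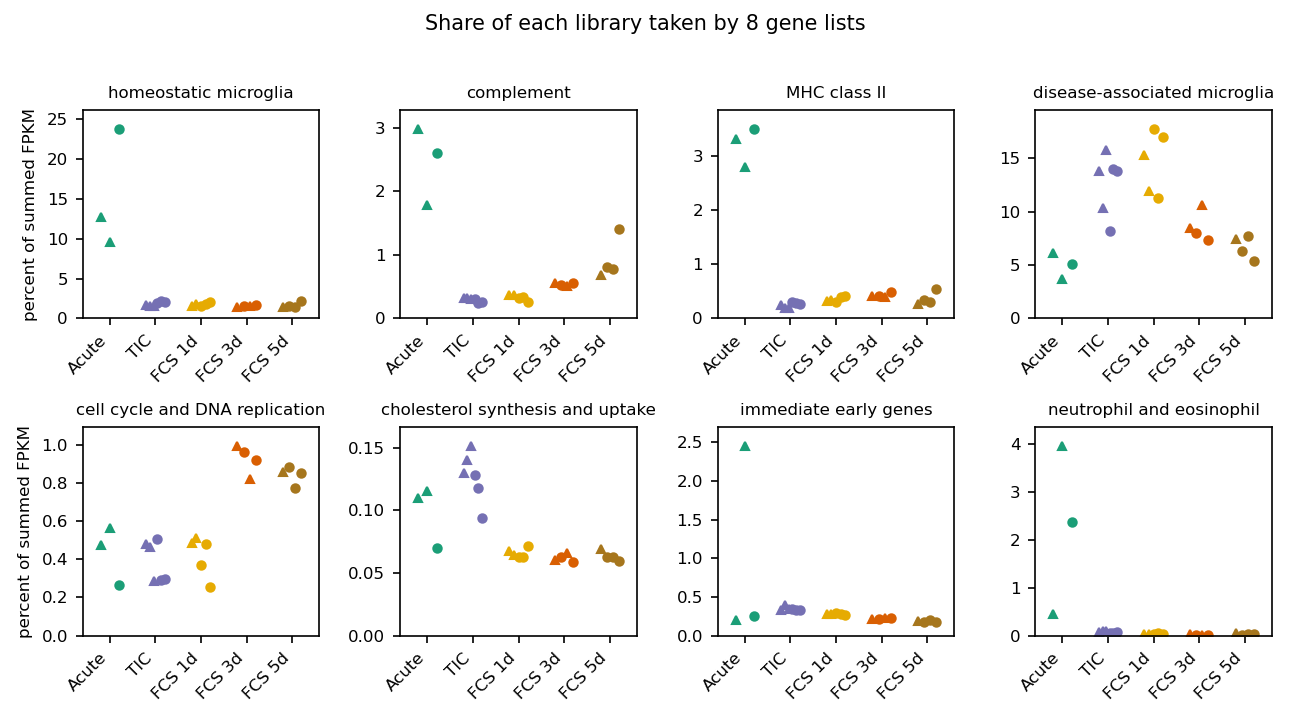
Share of summed FPKM (y axis, percent) taken by 8 gene lists in each library, by group (x axis). Circles are libraries with few tested genes at 0 and triangles those with many. Homeostatic and complement genes, genes of MHC class II and its loading, and granulocyte transcripts take most in Acute. The cell cycle list takes most in FCS 3d and FCS 5d, and Acute 2 stands alone for immediate early genes.

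The distance of FCS 3d from Acute was compared with that of the other cultures through direct contrasts, since all cultures share the Acute samples as reference. Between FCS 3d and TIC, 977 genes were called (10.1%), 400 higher (4.13%) and 577 lower (5.95%) with serum, and with the summed-FPKM term 584 were higher and 462 lower. Without FCS 3d 1 the count was 623, and without FCS 3d 2 it was 619. Among the lists with at least 10 tested members, the shares higher than in TIC were largest for the cell cycle (67 of 91), complement (8 of 20) and border macrophage genes (5 of 17, with 1 lower). Homeostatic genes were 7 higher and 4 lower. Cx3cr1 was higher than in TIC by 3.24 (adjusted p = 0.0027), Slc2a5 by 2.33 (adjusted p = 0.00044), P2ry12 by 1.55 (adjusted p = 0.036) and Tmem119 by 1.35 (adjusted p = 0.033), while Sall1 stood at 1.61 ± 0.485 FPKM in TIC (SD, n = 6) and differed by -0.04 (adjusted p = 0.97). Even so P2ry12 averaged 15.6 ± 6.99 FPKM in FCS 3d (SD, n = 4) beside 698 ± 332 FPKM in Acute (SD, n = 3). Immediate early genes were lower than in TIC in 15 of 40 cases and higher in 2.

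Between 5 and 3 days of serum 61 genes were called (0.629%), 27 higher (0.279%) and 34 lower (0.351%) at 5 days, and 742 had an unadjusted p under 0.05. The count was 27 without FCS 3d 3 and 35 without FCS 3d 4, and it was 99 to 163 with either rescaling, with the 2 groups alone, with the replicate block or with the summed-FPKM or zeros term. Il1b was at 151 ± 25.0 FPKM at 3 days and at 519 ± 131 FPKM at 5 days (SD, n = 4 each; log2 change 1.76, adjusted p = 0.0061). Nqo1 was lower at 5 days, at 55.5 ± 22 FPKM (-1.73, adjusted p = 0.0078), and so was Tmem119, at 12.2 ± 8.28 FPKM (-1.97, adjusted p = 0.034). Mmp12, a macrophage elastase that was listed at 0 in fresh cells and stood at 38.1, 12.9, 36 and 11.3 FPKM in FCS 3d, was lower at 5 days (-2.93, adjusted p = 0.017). No cell cycle gene of the 91 tested was called between 3 and 5 days, and Cdk1 differed by -0.04 (adjusted p = 1). C1qa was at 590 ± 132 FPKM at 5 days, which did not pass the test against 222 ± 36.6 FPKM at 3 days (1.39, adjusted p = 0.13).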

How the data were processed

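RNA-seq of 22 samples was used, with 7 in the main comparison. Per the labels' protocols, 10 ng of total RNA gave full-length poly-A libraries that were tagmented and sequenced in pairs, in 2 batches that each held every condition. No source used here says which sample was in which batch. The authors deposited FPKM values for 17284 gene symbols. Per the submitters' processing notes, the names are HISAT2 2.0.3, Cufflinks 2.2.1 and rat build rn6. No source used here gives the annotation, strand setting or scaling of libraries, so reads of overlapping or antisense genes may be counted together. The series calls the samples biological replicates without naming animals or preparations, so p-values measure the spread between these samples. That spread is pooled over all 5 groups and is not that of Acute and FCS 3d alone. The fresh libraries were less alike (r = 0.84 to 0.86) than the FCS 3d libraries (r = 0.94 to 0.98).

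The 9691 genes reaching 1 FPKM in 3 or more samples were tested in limma 3.58.1 under R 4.3.3 on log2(FPKM + 1), a scale that understates changes of low genes. One fit held 5 group means over 22 samples (17 residual degrees of freedom), with a variance trend and robust moderation. Tests were two-sided, and calls used a Benjamini-Hochberg adjusted p under 0.05. Lists are described by counts and medians, without a test. A value of 0 may be a failed estimate, so where a group holds zeros the libraries' values are given. Contrasts with TIC and FCS 5d used the same fit.

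FPKM carry no read totals, so absolute depth and counting error are unknown. Steps between values under 2 FPKM of the same gene gave depth relative to FCS 3d 1: 1.7, 3.47 and 1.49 times in Acute 1 to 3, and 3.88, 1.06 and 3.46 times in FCS 3d 2 to 4, with 42.1 to 70.5% of compared genes on the step. A 0 in a shallower library is weaker evidence. Among the fresh libraries the zeros did not follow these depths, with 934 tested genes at 0 in Acute 2 and 527 in Acute 3. In FCS 3d they did, with 485 and 510 in FCS 3d 2 and 4, against 1004 and 972 in FCS 3d 1 and 3.

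The members and lists were chosen with earlier results of these data known. Named genes are part of 260 given by a rule: the 15 largest rises and falls without overlap, 48 fixed genes, and from each of 44 lists up to 5 called members ranked by absolute change plus up to 3 that went against most of it, 11 of them markers of other cells. Lists with fewer than 2 called members gave up to 2 by mean FPKM. The fit was run on simulated data with independent noise and, for each gene, the same spread in every group. That run does not cover the wider spread of the fresh libraries, the difference in summed FPKM or the zeros. The alternatives tried were rescaling by median of ratios, quantile normalization, a pseudocount of 0.1 or of 5, a filter of 5 FPKM or none, a fit of the compared groups alone, a replicate block, splits by summed FPKM and by zeros as covariates, each replicate left out, and libraries with few or with many zeros alone. For lists and named genes the last 2 were added after seeing the data. Promoter letters came from a RefSeq table on GRCr8, and figures were drawn with matplotlib.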

Additional observations from a re-analysis of the deposited data

Results flagged for a closer look

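In 7 of 95 named genes with a tested spread, 1 library lay far from the other FCS 3d libraries relative to the range on the log2 scale. Chance flags about 1 in 20 groups. FCS 3d 3 was the low library for Aurka (19.4 FPKM), Hk3 (62.2 FPKM) and Irf1 (3.32 FPKM) and the high one for Lgals3 (783 FPKM). FCS 3d 4 was the low library for Dab2 (166 FPKM), FCS 3d 2 the high one for Pltp (47.6 FPKM) and FCS 3d 1 the high one for Tfec (22.2 FPKM). The distance from Acute differed between FCS 3d and TIC for 977 genes, and between FCS 5d and FCS 3d for 61 genes, both tested directly between the cultures.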

How the results depend on the processing

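The count of genes called between FCS 3d and Acute ranged from 3062 to 4112 when 1 library was left out and was 1910 in the libraries with few zeros, where Acute 3 is the lone Acute library and is assumed to vary like the other groups. It was 3101 in the libraries with many zeros. A fit of FCS 3d and Acute alone called 2941 genes (818 higher and 2123 lower), against 3814 in the main fit, which pools its spread over all 5 groups. Between FCS 3d and TIC the leave-one-out range was 619 to 954. Between FCS 5d and FCS 3d it was 27 to 54, and the count was 99 after median-of-ratios rescaling, 119 after quantile normalization, 163 with the compared groups alone, 158 with the replicate block, 136 with the summed-FPKM covariate and 109 with the zeros covariate. The cause of these differences was not tested. Same-numbered libraries of Acute and FCS 3d did not deviate together (r = 0.05, -0.08 and -0.09, with 1 Acute library closest to its own number). The numbers were not taken as pairs, but this check did not cover pairs of cultures. A list of osteoclast genes took 5.94, 1.54, 5.58 and 1.07% of summed FPKM in TIC 1 to 4. It took 1.91, 0.857, 2.55 and 0.747% in FCS 3d 1 to 4, and 1.99, 0.759, 2.18 and 0.415% in FCS 5d 1 to 4. High and low cultures thus recurred by number for this list, and their pairing was not tested. With the replicate block 4501 genes were called between FCS 3d and Acute and 1132 between FCS 3d and TIC (648 higher and 484 lower). Of 100 named genes, 13 lost their call with the summed-FPKM covariate, and Trem2 turned to 0.56. The libraries with few zeros lost 20 calls, those with many zeros 7, and leaving out 1 library at most 4. The number of lists with more lower than higher members, 28 of 44, stayed between 22 and 30. The pseudocounts of 0.1 and 5 lost 1 call each (Gpam), and no filter and the filter at 5 FPKM, which left 98 named genes, lost 0. Depth limits low genes in the shallower libraries.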
